A study of Pan troglodytes with 6 samples.

Results

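The cerebellum of the chimpanzee (Pan troglodytes) was described from 3 arrays, those whose titles name the cerebellum, out of 6 arrays in the series. The other 3 arrays hold liver of animals with the same ages and sexes and were used here only for a ranking of their own. The cerebellum samples are labelled as biological replicates: replicate 1 came from a 27-year-old female, replicate 2 from a male aged 37 years and replicate 3 from a male aged 30 years. No treatment or genotype is given for any of them. RNA extracted with TRIzol and depleted of ribosomal RNA was turned into biotin-labelled DNA and hybridised to Affymetrix Human Exon 1.0 ST arrays, whose probes were designed on human sequence. Of 15143 features on the arrays, 12685 carry 1 gene symbol in the platform annotation, and these rows were ranked by their mean intensity over the 3 cerebellum arrays. The top 1% holds 126 rows (0.993% of those ranked) and the top 5% holds 634 (5.0%). A percentile of 100 stands for the highest row, and 3 values given together are always those of replicates 1, 2 and 3, in the deposited linear intensity unit.

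The cerebellar cortex is built from a few neuron types in a fixed layout. Granule cells, small glutamatergic neurons and the most numerous neurons of the brain, send parallel fibres to the dendrites of Purkinje cells, which are large GABAergic neurons and the only output of the cortex. Basket, stellate and Golgi cells are inhibitory interneurons, Bergmann glia are astrocytes that wrap the Purkinje synapses and clear glutamate, and oligodendrocytes form the myelin of the white matter.

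All 6 arrays share a single distribution of values, with a median of 96.3 and a highest value of 6527, so a value is equivalent to a rank on its array. An intensity is the brightness of a feature's probes. It depends on the probes as well as on the amount of RNA, and human probes can meet mismatches in chimpanzee RNA. The order below is therefore an order of feature signals, not of transcript abundance. In tissue samples, fewer cells of a type and less RNA per cell cannot be told apart.

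The highest rows joined a nuclear RNA with genes of astrocytes, neurons and general cell upkeep. MALAT1, a long noncoding RNA of the nucleus, was the highest ranked row on each array, at 6527, 6527 and 6527. Because the normalization fixes the value of the highest feature, its SD of 0 says only that the rank was the same. GLUL, the glutamine synthetase by which astrocytes turn glutamate into glutamine, was second with 5389, 4900.0 and 5922 (mean ± SD 5404 ± 511, n = 3). GPM6A, a membrane glycoprotein of neurons, was at 5118, 5389 and 5389 and ranked 3 on every array. CLU, the secreted chaperone clusterin, followed at 4194, 5922 and 4537, with replicate 2 the highest. RPS6, a protein of the small ribosomal subunit, had 4900.0, 4297 and 4419.

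Neuronal genes took several of the next places. VSNL1, a neuronal calcium sensor, had 3812, 4700.1 and 4900.0, and replicate 1 was the lowest. SNAP25, the membrane SNARE protein of synaptic vesicle fusion, had 4700.1, 3676 and 4194, with replicate 1 the highest. TSPAN7, a tetraspanin of neurons, had 3676, 4419 and 4107. GNAS, the stimulatory G protein alpha subunit, lay within a narrow span at 3964, 4194 and 4040.2. Between VSNL1 and SNAP25 stood HSPA8, the constitutive HSP70 chaperone, at 4537, 3964 and 4297.

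Glycolytic enzymes and cerebellar neuron genes completed the 20 highest rows. GAPDH had 2695, 5118 and 3493, so that its place moved with the array (within-array ranks 31, 4 and 14). ENO2, the neuronal enolase, had 3233, 3493 and 3812, and ALDOC, the aldolase also known as the Purkinje cell antigen zebrin II, had 2646, 3612 and 3399. ZIC1, a zinc finger factor of the granule cell lineage, ranked 14 with 3151, 2852 and 3882 and was the highest transcription factor of the ranking among the genes classed as such. ITM2B, a membrane protein related to amyloid disease, had 3882, 3048 and 3746. CCNI, an atypical cyclin, stood at 3315, 3233 and 3278. CNBP, a nucleic acid binding protein, had 3077, 3357 and 2903, and RPL37A of the large ribosomal subunit had 3278, 2903 and 2852. PSAP, the precursor of the lysosomal saposins, had 2325, 3544 and 3023, and TIAM1, an exchange factor for the GTPase RAC, closed the group at 3357, 2557 and 2959.6. Replicate 1 was the lowest of the 3 arrays for GAPDH, ENO2, ALDOC and PSAP, and the highest for ITM2B, CCNI, RPL37A and TIAM1.

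**Figure D1:**
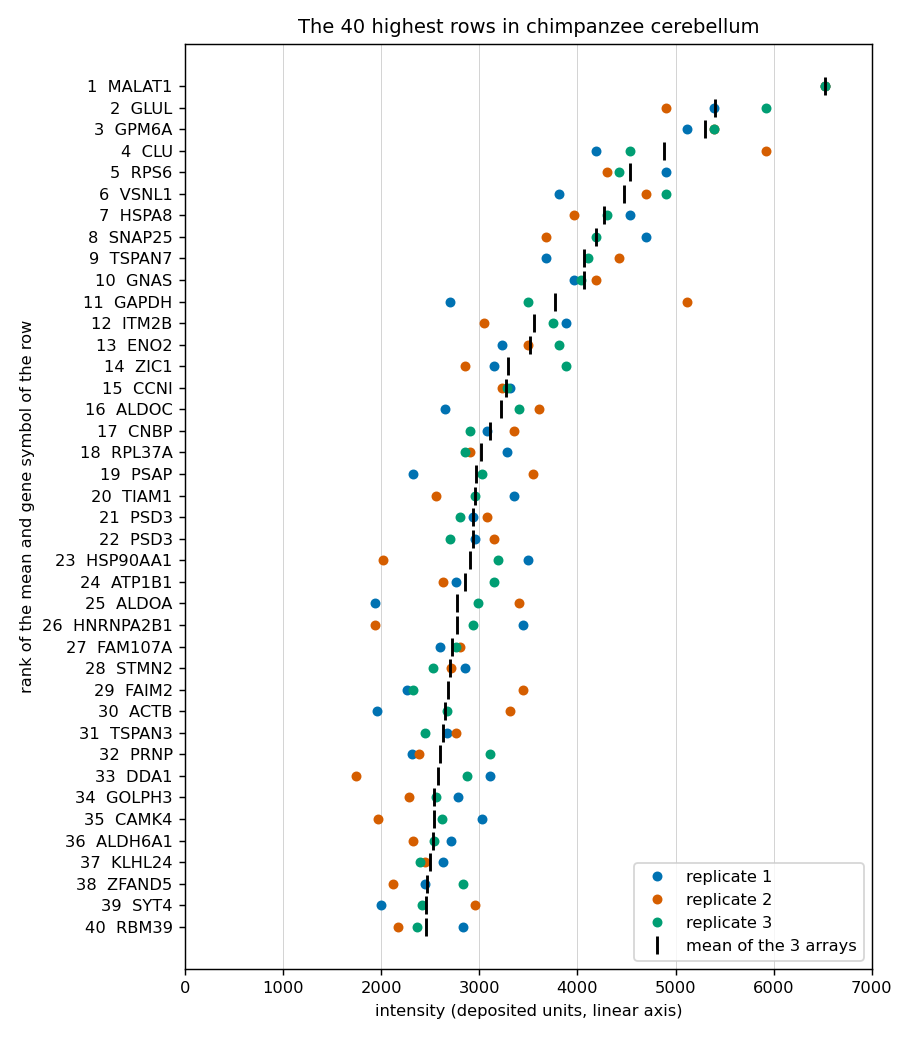
Intensity of the 40 highest rows (linear axis, deposited units), with 1 point per cerebellum array and a bar at the mean of the 3 arrays. MALAT1 stands apart at 6527 on each array, and from rank 2 on the points of neighbouring rows overlap.

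The intensity fell slowly along the top of the ranking. MALAT1 exceeded the row at rank 126 by 4.24-fold, the top 1% held 12.1% of the summed positive mean intensity, and the top 5% held 31.7%. The limits of both groups fell within the spread between arrays. PRDX1, a peroxiredoxin, was the last row inside the top 1% with a mean of 1539 ± 229.6 (SD, n = 3). CFL2, a cofilin, stood just before it at 1540.2, and GABARAPL2 and LUC7L3 stood just outside at 1525 and 1519. At the limit of the top 5%, SKP1 and TGOLN2 lay inside at 675.3 each, and GBX2 and EPB41L3 outside at 675.0 and 674.9.

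Sorted by hand after their values were seen, the 126 rows of the top 1% were most often of intracellular signalling, with 16 rows of 15 genes. RNA binding and nuclear RNA, the cytoskeleton, and the secretory pathway with lysosomes and amyloid precursors followed with 12 rows each. Energy metabolism had 11 rows, cell surface and adhesion 10, chaperones and ubiquitin 9, and transcription and chromatin 7. Transmitter release and membrane transport had 6 rows each, and translation, redox and iron, and the handling of glutamine and glutamate had 4 each. Myelin was present through MBP alone, and 12 rows were given no class. The classes were made for these rows only, so no share over all rows stands beside them, and broad classes hold more rows. Features without a single symbol are not in this account. The top 1% of all 15143 features holds 151, of which 18 carry several symbols and 13 none. Of the 126 rows, 65 (51.6%) belonged to at least 1 of the function lists described next, against 14.2% of all ranked rows. The lists were chosen with earlier results of these data known, so this difference may be partly built in.

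The function lists gave the share of a whole gene family that reached the top. Glycolysis stood highest among the lists of more than 4 measured genes: 7 of its 15 measured genes were in the top 1%, 10 in the top 5%, and the median percentile was 99.0. Beside GAPDH, ENO2 and ALDOC, these 7 were ALDOA with 1939.8, 3399 and 2988, the pyruvate kinase PKM with 1525, 2269 and 1919.7, LDHB with 1766, 1919.7 and 1894 and ENO1 with 1226, 2575 and 1616. In 14 of the 15 genes replicate 1 was the lowest array, against 32.8% of all ranked rows, and in 11 replicate 2 was the highest, which was so for 39.6% of all ranked rows. Oxidative metabolism ranked lower. The respiratory chain and ATP synthase had 10 of 50 genes in the top 5% (median percentile 86.8), led by the ATP synthase subunits ATP5F1A with 1646, 2297 and 1856 and ATP5PD with 1407, 1450.0 and 1834. The list of the citric acid cycle and pyruvate oxidation had 4 of 18 genes there and 0 in the top 1%. Its leaders were cytosolic enzymes of the malate-aspartate shuttle, GOT1 with 749, 1307 and 1004 and MDH1 with 762, 928 and 984. Replicate 2 was the highest array in 36 of the 50 respiratory genes and in 12 of the 18 of the citric acid cycle list, against the same 39.6%.

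Genes of synaptic vesicles and transmitter release had 16 of 40 measured members in the top 5% and 39 above the median row. The 6 in the top 1% were SNAP25, the calcium sensor of release SYT1 with 1926, 2367 and 2215, its relatives SYT4 with 1996, 2959.6 and 2409.9 and SYT11 with 1599.7, 1791 and 1580.2, the vesicle priming factor CADPS2 with 2013, 1392 and 2062, and NAPB, which helps to take apart SNARE complexes, with 1589, 1755 and 1760.4. In CADPS2 replicate 2 was the lowest array, and in SYT1, SYT4 and SYT11 it was the highest. All 6 lay below the median row in liver's own ranking (50% of all ranked rows do). They were the only class of the top 1% with more than 1 row of which that held for every row. The receptors for the transmitters stood lower. Glutamate receptors and postsynaptic scaffold genes had 5 of 43 members in the top 5%, led by the AMPA receptor subunit GRIA2 with 1689.5, 1094 and 1665 and the kainate receptor subunit GRIK2 with 1585, 891 and 1163. GABA and glycine receptors had 2 of 20, GABRB2 with 1278, 1694 and 1310.2 and the granule cell subunit GABRA6 with 513, 1039.9 and 575. On GABRA6 replicate 2 stood apart, and the other two arrays were close to each other.

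Excitability genes divided by kind. Ion-pumping ATPases had 7 of 28 members in the top 5% and a median percentile of 88.6. Their leaders were the beta subunits of the sodium pump, ATP1B1 with 2761, 2633 and 3151 and ATP1B2 with 2107, 1979 and 1903. Potassium channels had 2 of 74 in the top 5% with a median percentile of 37.8, below the middle of the ranking. These were KCND2, a channel of the A-type current, with 907, 1063 and 869 and KCNK1 with 738, 753 and 714. Among 28 sodium and calcium channel genes the top 5% held SCN2A with 2521, 1081 and 2284 and CACNA1A, the P/Q-type calcium channel subunit, with 1819, 929 and 1499. Replicate 2 was the lowest array for both, and it was the lowest in 18 of the 28 genes of that list, against 39.7% of all ranked rows.

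Calcium binding and calmodulin signalling had 10 of 27 members in the top 5% and 4 in the top 1%. Beside VSNL1 and PCP4 these were CAMK4, a calmodulin-dependent kinase strong in granule cells, with 3023, 1968 and 2616 and the calcineurin subunit PPP3CA with 2053, 2013 and 2575. Of the 4 measured 14-3-3 proteins, adaptors that bind phosphorylated partners, 3 were in the top 5%. YWHAH led them with 1812, 2521 and 1959.5 and YWHAG followed with 993, 1426 and 1271. All 4 were highest on replicate 2 and lowest on replicate 1. PSD3, an exchange factor for ARF6, filled ranks 21 and 22 through its 2 rows.

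Lists of the cytoskeleton and the cell surface differed in rank. Actin and its partners had 10 of 22 members in the top 5%, and all 22 lay above the median row. ACTB had 1959.5, 3315 and 2673 and the spectrin SPTAN1 1544, 1839 and 1634. Microtubule-associated and neurofilament proteins had 10 of 28, led by STMN2, a regulator of microtubules in growing neurites, with 2852, 2715 and 2521 and MAP1B with 2226, 1948 and 2189.6. Neural cell adhesion proteins had 9 of 33, among them GPM6A, its relative GPM6B with 2243, 2426 and 2144 and the contactin CNTN1 with 2045, 2339 and 2310.4. The list of cadherins and protocadherins stood lower, with 4 of 49 in the top 5%, against 5.0% of all rows. Of these 49, 26 lay below the median row. CTNNB1, the list's highest member and its sole one in the top 1%, is a catenin that binds cadherins, not a cadherin itself. Kinesins and dyneins had 8 of 50 in the top 5% and 20 below the median row. The secretory granule and amyloid precursor list had 7 of 18, with 5 in the top 1%. After ITM2B came the prion protein gene PRNP with 2310.4, 2382 and 3108, carboxypeptidase E (CPE) with 2297, 2537 and 2509, APLP2 with 1909.8, 2673 and 2646 and APP with 2215, 2354 and 2257.

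RNA-binding and splicing proteins had 18 of 57 members in the top 5%. HNRNPA2B1 had 3446, 1939.8 and 2932 and HNRNPH1 had 2457, 1894 and 2595, both lowest on replicate 2. Chaperones had 11 of 69, led by HSPA8 and HSP90AA1, the latter with 3493, 2019.6 and 3192. Cytosolic ribosomal proteins had 5 of 13, with RPS6, RPL37A and RPL8 in the top 1%, while 6 of the 13 lay below the median row (50% of all rows do). Members of a single complex thus lay on both sides of the median row. The proteasome had 2 of 33 in the top 5% although 30 lay above the median row. DNA-binding factors were rarely high. The ZNF series had 5 of 289 members in the top 5% (1.73%), and homeobox, SOX, FOX and PAX factors had 2 of 113 (1.77%), the heart factor NKX2-5 with 999.8, 648 and 992 and the granule cell factor MEIS1 with 804, 616 and 767. In liver's own ranking NKX2-5 lay at percentile 94.83 and MEIS1 at 45.55.

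In 6 of the function lists 0 members reached the top 5%. The lists were cell cycle and DNA replication with 46 measured genes, cytochromes P450 with 34, collagens with 37, keratins with 31, interleukins, interferons and chemokines with 55, and olfactory and taste receptors with 44. Their median percentiles ran from 9.80 for the olfactory and taste receptors to 27.6 for the keratins.

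**Figure D2:**
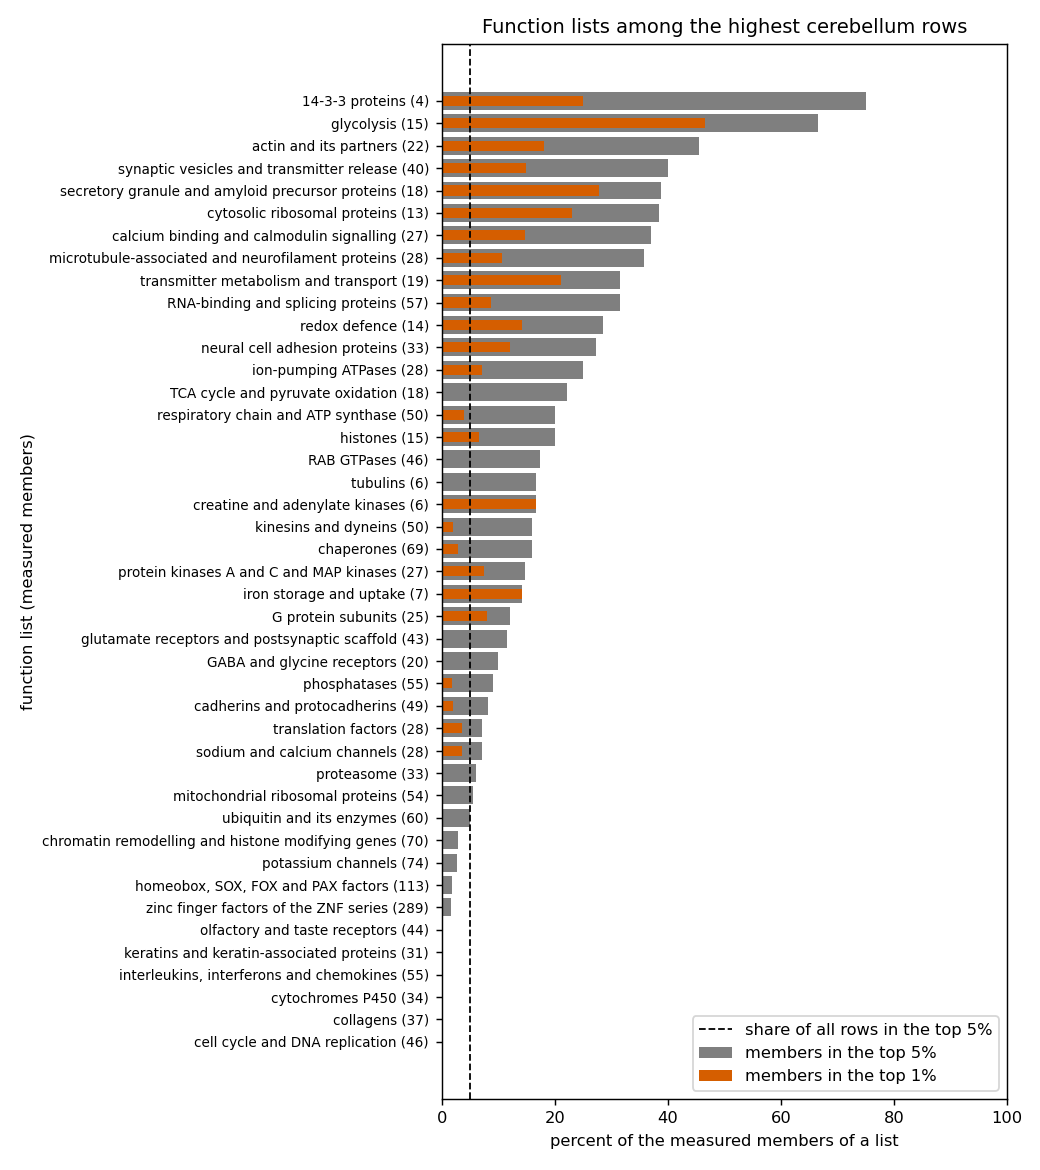
Percent of the measured members of each function list in the top 5% (grey) and the top 1% (orange) of the cerebellum ranking, with the number of measured members in parentheses and a dashed line at 5.0%, the share of all rows. Glycolysis (10 of 15), actin (10 of 22) and transmitter release (16 of 40) lie far to the right, and 6 lists have no bar.

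Marker lists for 17 cell types were laid over the same ranking. Granule cells stood highest. Of 15 measured markers all lay above the median row, 9 were in the top 5% and 4 in the top 1%, and the median percentile was 95.7. ZIC1 led, followed by RELN, the secreted protein reelin made by granule cells, with 1791, 2144 and 2004. ETV1, a factor of mature granule cells, ranked 78 with 2409.9, 1290.2 and 2116 and was lowest on replicate 2. FAT2, a cadherin of parallel fibres, had 1212, 1568 and 1379.7, ZIC2 had 963, 1719 and 1407 and CBLN1, the cerebellin released by parallel fibres onto Purkinje cells, had 919.5, 1179 and 963. The lowest member was CNTN2 at percentile 73.3, with 245, 215 and 164. The widest in rank was NEUROD2, with 213, 448 and 210.3 and a span of 16.2 percentile points between its highest and lowest array.

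Purkinje cell markers came from a rarer cell and spread further. Of 17 measured, 6 were in the top 5% and 14 above the median row, with a median percentile of 83.6. ALDOC, which the glycolysis list also holds, and PCP4, a calmodulin-binding peptide, led the list, the latter with 2072, 2932 and 1525. From which cells the ALDOC signal came was not tested. ITPR1, the IP3 receptor abundant in Purkinje cells, had 660.5, 1153 and 995. CALB1, the calcium buffer calbindin, had 532, 1032 and 851, and CA8, a protein that binds the IP3 receptor, had 441, 1122 and 721. In ITPR1, CALB1 and CA8 replicate 1 was the lowest array and replicate 2 the highest. Replicate 2 was the highest in 12 of the 17 members, against 39.6% of all ranked rows, and the list's median percentile was 78.1, 92.7 and 80.7 on the 3 arrays. STAC moved the other way with 150.4, 30.3 and 86.6, the widest span of the list at 44 percentile points. FOXP2 was the lowest member, at percentile 15.2.

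Inhibitory interneurons had 0 of 13 measured markers in the top 5% and a median percentile of 48.3. KIT, a receptor of basket and stellate cells, was the highest at 284, 1004 and 518. GAD1, a GABA-synthesising enzyme that Purkinje cells share, had 202, 582 and 342. SLC6A5, the glycine transporter of Golgi cells, lay at 36, 97.2 and 61.1, and the somatostatin gene SST was at the bottom of the ranking (percentile 0.461). Replicate 1 was the lowest array in all 13 members (32.8% of all ranked rows), and replicate 2 the highest in 10 (39.6%). The 6 measured markers of unipolar brush cells, excitatory interneurons of the granular layer, had a median percentile of 54.3. Only PLCB4, which Purkinje cells also use, was in the top 5%, with 1024, 616 and 1009. The defining factor EOMES had 102, 68.2 and 126, and OTX2 was both the lowest and the widest with 131, 27.3 and 97.8.

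Bergmann glia and astrocytes were second among the cell type lists, with 8 of 19 measured markers in the top 5% and a median percentile of 92.6. The 5 in the top 1% were GLUL, CLU, SPARCL1 with 1879.8, 3108 and 2083, the glutamate transporter SLC1A3 with 1594, 2595 and 2738 and NDRG2 with 1834, 2398 and 2179. In liver's own ranking SLC1A3 lay at percentile 20.65 and SPARCL1 at 79.53, but GLUL, CLU and NDRG2 at 99.6, 99.97 and 96.65. A high rank of GLUL, CLU and NDRG2 was thus not particular to the cerebellum. The water channel AQP4 had 1221, 1988 and 1257 and SLC1A2, the other main glial glutamate transporter, 905, 1296 and 865. GFAP, the intermediate filament often used to mark astrocytes, stood lower at rank 946 with 475, 828 and 304. FABP7, the fatty acid binding protein of Bergmann glia, had 489.8, 1926 and 450.4, with replicate 2 far above the others. GJB6, a gap junction protein, spanned 35.7 percentile points with 77.4, 259 and 92.8, and TNC was the lowest at percentile 4.25. Replicate 2 was the highest array in 15 of the 19 members (39.6% of all ranked rows).

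Oligodendrocyte markers were spread over the whole ranking, with a median percentile of 60.0 for 19 measured genes. Where a symbol has more than 1 row, a list takes the row of the highest mean. On that basis MBP, the myelin basic protein, was the only member in the top 5%, with 4297, 966 and 1481, while its other row lay at percentile 5.38. CNP, a myelin enzyme, was next at 696, 507 and 499. UGT8, which makes the myelin lipid galactosylceramide, had 442, 111 and 202 and the widest span of the list. TSPAN2 was the lowest member by its row, at percentile 7.82, and the other MBP row lay lower still. In 15 of the 19 members replicate 1 was the highest array, against 31.6% of all rows, and in 0 of them replicate 3. The 6 markers of oligodendrocyte precursors had a median percentile of 44.0, led by PTPRZ1, which the glial list also holds, with 279, 524 and 393.

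Cells of vessels, meninges and blood were low. Of 18 microglia and macrophage markers 16 lay below the median row, with a median percentile of 27.9. LAPTM5 was the highest at 104, 182 and 58.2, followed by TYROBP at 80.2, 132 and 89.7, and CD14 had the widest span with 29.3, 167 and 57.8. Of 18 endothelial markers 14 lay below the median row. The glucose transporter SLC2A1 was the highest at 183, 336 and 179.8, CLEC14A followed with 267, 109 and 290.2, and PECAM1 was the widest with 29.8, 95.3 and 17.8. In the pericyte and smooth muscle list RGS5 had 313, 651 and 210.0 and MCAM 258, 456 and 384, while 7 of 10 members lay below the median row. Replicate 2 was the highest array in 15 of 18 microglial, 13 of 18 endothelial and 10 of 13 meningeal markers, against 39.6% of all ranked rows. DCN, a matrix proteoglycan of the meninges, had 114, 474 and 185, and fibronectin (FN1) had 28.3, 135 and 31.9, both far higher on replicate 2.

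Lists of cells that a cerebellum should not hold, or should hold in small numbers, were laid over the ranking too. Microglial and endothelial markers, of cells the tissue holds, had median percentiles of 27.9 and 25.7, below that of the forebrain neuron list. A list median thus cannot tell absent cells from present ones, and the label was not tested by it. Hepatocyte markers had a median percentile of 9.86, lymphocyte markers 12.8 and the red cell and neutrophil list 14.2. Forebrain neuron markers stood at 38.7, with 10 of 14 below the median row, and their highest member was NEUROD2, which granule cells also express. FEZF2, LHX2 and EMX1, factors of the cerebral cortex, were at percentiles 61.5, 47 and 41.3, which is not the bottom of the ranking. Monoamine and cholinergic neuron markers were all below the median row, at a median percentile of 23.4. All 10 measured ependymal and choroid plexus markers were below it too, and TTR, the transthyretin of the choroid plexus, had 23, 43.2 and 10.2. CYP2E1, a liver enzyme, was the exception among hepatocyte markers with 318, 50.8 and 267, high on 2 arrays and low on replicate 2.

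**Figure D3:**
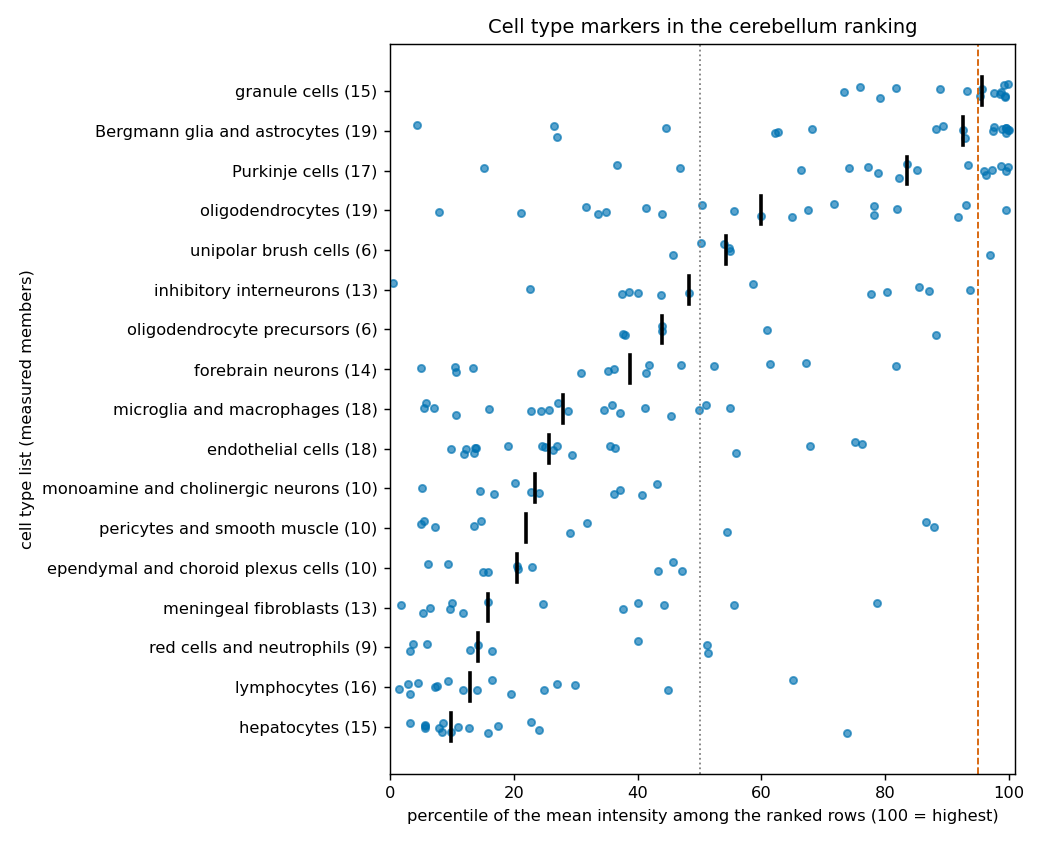
Percentile of each measured marker in the cerebellum ranking (points, with vertical jitter), by cell type list, with a bar at the list's median, a dotted line at the median row and a dashed line at the limit of the top 5%. Granule cells, Bergmann glia and astrocytes, and Purkinje cells have medians of 95.7, 92.6 and 83.6, and lists of cells from outside the brain lie to the left.

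The lists differed in which animal was highest. Replicate 2 led in Purkinje, interneuron, glial, microglial, endothelial and meningeal markers. It was also the highest in 9 of 15 hepatocyte, 8 of 14 forebrain neuron and 6 of 10 pericyte and smooth muscle markers, against 39.6% of all ranked rows. These lists are short, and the hepatocyte list had a median percentile of 9.86, where signals near background have little order. In contrast, replicate 1 led in oligodendrocyte markers, and replicate 3 led in 11 of 16 lymphocyte markers, all of which but 1 lay below the median row. Replicate 3 was the highest in 28.8% of all ranked rows. Among the function lists, collagens were highest on replicate 3 in 25 of 37 genes. Genes of chromatin remodelling were lowest on replicate 2 in 40 of 70, and the ZNF series in 142 of 289, where 39.7% of all ranked rows were, so that the ZNF share was not far above that of all rows. With 1 array per animal, age, sex, dissection and RNA handling cannot be told apart here, and the part of white matter, vessels or meninges in the pieces of tissue was not tested.

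**Figure D4:**
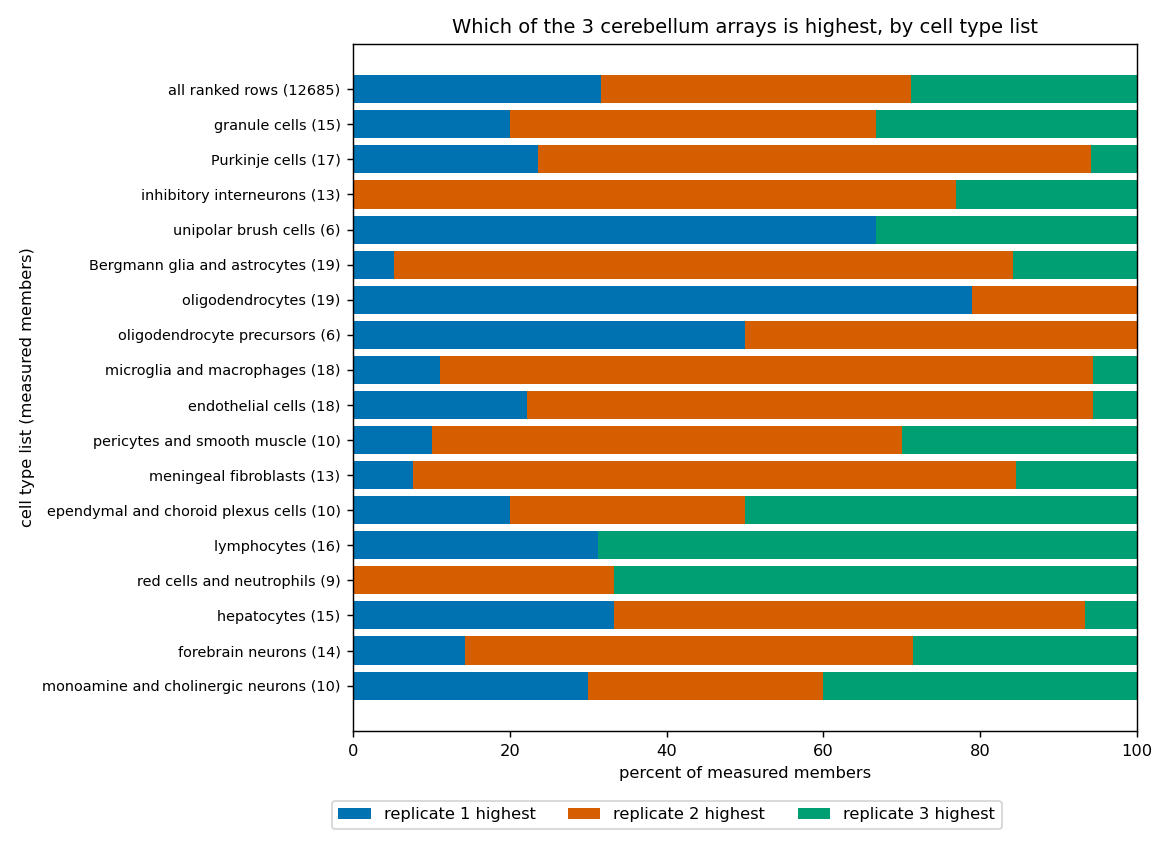
Percent of the measured members of each cell type list whose highest value was on replicate 1, 2 or 3, with all ranked rows at the top. The oligodendrocyte bar is mostly replicate 1 (15 of 19), while the glial (15 of 19) and microglial (15 of 18) bars are mostly replicate 2.

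Membership of the top held on all arrays for most rows. Of the 126 rows, 81 (64.3%) were in the top 1% on each of the 3 arrays, 35 on 2 and 10 on 1. Of the 634 rows of the top 5%, 444 (70.0%) were in it on each array. By class, 11 of 12 secretory and lysosomal rows and all 4 translation rows were in the top 1% on every array, against 5 of 12 cytoskeletal and 3 of 7 transcription and chromatin rows. Where a row missed the top 1% on some array, replicate 2 was its lowest array in 22 of 45 rows, replicate 1 in 16 and replicate 3 in 7. In the same order, the shares were 39.7%, 32.8% and 27.45% over all ranked rows. Over the whole top 1% they were 42.1%, 42.9% and 15.1%, so these counts were not far from the background. When the top 1% was formed from a pair of arrays, the array left out held 99, 93 and 107 of its 126 rows in its own top 1%, for replicates 1, 2 and 3. All 126 rows were in that array's top 5% each time.

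Replicates 1 and 3 were the most alike. They shared 104 of 126 rows of the top 1%, replicates 2 and 3 shared 94, and replicates 1 and 2 shared 87. Spearman's rho across all rows was 0.977, 0.954 and 0.946 for these pairs, and 0.769, 0.681 and 0.456 within the top 1%. These values are across genes, which are not independent replicates, and describe the arrays.

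The top of the ranking had the narrowest spans in percentile. Across the top 1% the median span between a row's highest and lowest array was 0.276 percentile points, and 112 of 126 rows stayed within 1 point, against 4.79% of all ranked rows. It was 1.67 points between the top 1% and 5%, and reached 9.96 points in rows between the 25th and the 50th percentile. Of the top 5%, 595 rows stayed within 5 points, against 36.0% of all rows. The coefficient of variation differed less, with a median of 12.7% in the top 1% and 17.4% over all rows. A span in percentile depends on how closely rows lie in value as well as on the change of the row itself. The counts above are also partly fixed by the selection. The 81 rows in the top 1% on every array can span at most 1 point. Likewise, the 444 rows in the top 5% on every array can span at most 5 points. The scale is bounded at both ends, which narrows spans there.

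The exact order within the top was loose. Rows were ranked by the mean of the same 3 arrays, so neighbours have nearly equal means. A low share of neighbours in the same order, and its rise with distance, is therefore partly built in. Of the 125 pairs of neighbours in the top 1%, 1 kept its order on all 3 arrays, and among the first 20 pairs of neighbours the step from MALAT1 to GLUL alone did so and exceeded the larger SD. The share was 10.8% for rows 2 to 10 ranks apart, 35.3% for 11 to 25 ranks, 65.3% for 26 to 50 ranks and 92.2% for 51 to 100 ranks. All 325 pairs more than 100 ranks apart kept their order. A gene near rank 10 was thus placed above one near rank 120 on each array, while most genes of neighbouring rank in the plot of the 40 highest rows cannot be ordered. On every array the same 7 genes were among the 10 highest, though mostly not in the same places.

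By span in percentile, the steadiest rows of the top 1% were MALAT1, GPM6A, GNAS and, with the same span as each other, CCNI, SOD1 and GLUL. Steadiness in value differed from this. GLUL had a coefficient of variation of 9.46%, while DDX5, at rank 86 and with a wider span, had 1.28%. GNAS ranked 9, 9 and 10 on the 3 arrays, and CCNI ranked 16, 19 and 16. SOD1, the cytosolic superoxide dismutase, had 2398, 2409.9 and 2457 and ranked 44, 47 and 44. The least steady were SLC11A1, MSRA, MBP, SCN2A and CKB. SLC11A1, a metal transporter known from phagocytes, had 2426, 807 and 2269 and ranked 42, 475 and 55. MSRA, a methionine sulfoxide reductase, had 1948, 877 and 1887, and SCN2A, a neuronal sodium channel, ranked 36, 274 and 54. All of these 3 were low on replicate 2 alone. MBP ranked 7, 339 and 143, and its highest value was 4.45 times its lowest. CKB, the brain creatine kinase, went the opposite way, with 1087, 2493 and 1629 and ranks 261, 42 and 118.

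Below the top 1% some rows moved further. In the top 5%, the widest spans were those of PAGR1, at 18.1 percentile points with 848, 258 and 929, and of the kinase HIPK2, with 1144, 283 and 712. SPP1, osteopontin, had 1699, 338 and 307 and was thus in the top 5% through replicate 1. The splicing factor TRA2A had 1606, 363 and 834, and CAMSAP1, which binds microtubule minus ends, had 1684, 459 and 479.5. Both were highest on replicate 1. RHBDD2 with 369, 1229 and 634, OAT with 429, 944 and 669 and the Purkinje and glial genes CA8 and FABP7 were highest on replicate 2. SUCLA2, a subunit of succinyl-CoA synthetase, had 797, 408 and 957.

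**Figure D5:**
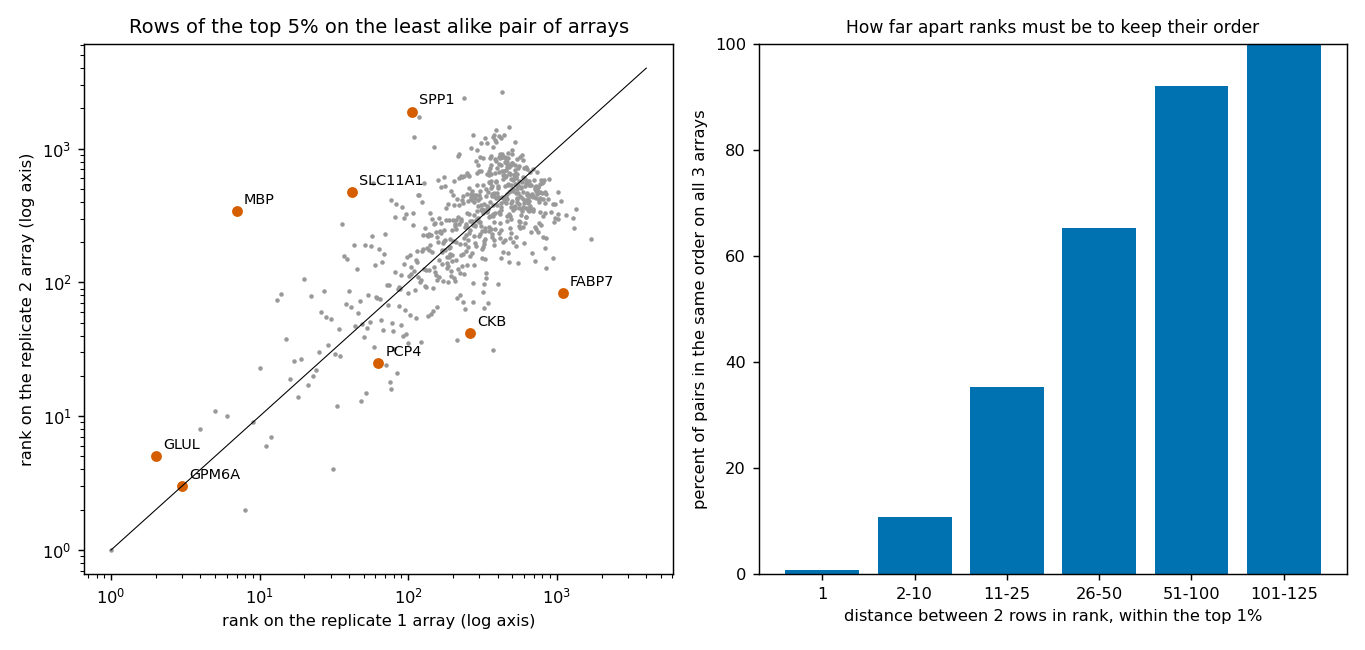
Left, ranks on replicates 1 and 2 (log axes) of the 634 rows of the top 5%, with the line of equal rank and 8 genes marked. Right, percent of pairs of top 1% rows in the same order on all 3 arrays, by their distance in rank. MBP and SPP1 lie far above the line (better ranked on replicate 1) and FABP7 far below it, and the right bars climb from 0.8% for neighbours to 100% beyond 100 ranks. The climb is partly built in, because ranks come from the mean of the same 3 arrays.

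Rows that share a symbol show how much a rank depends on the feature. Among 100 symbols with more than 1 row, the rows of a symbol differed by a median of 10.2 percentile points, and in 24 symbols by more than 25. The rows of PSD3 were at percentiles 99.84 and 99.83, and those of FTL, the ferritin light chain, at 99.35 and 96.58. For MBP, a row at 99.6 stood against another at 5.38, and for STMN1, a row at 95.2 stood against one at 19.4. KMT2A had rows at 96.0 and 51.3. The rank of a gene given by a single row carries this uncertainty too, which is not part of the spread between arrays.

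Many of the highest cerebellum rows were also high in liver. Of the 126 rows of the top 1%, 27 (21.4%) were in the top 1% of liver's own ranking and 58 (46.0%) in its top 5%, while 32 lay below liver's median row. RNA-binding and nuclear RNA genes were in liver's top 5% in 11 of 12 rows, and secretory and lysosomal genes in 9 of 12. Of the 634 rows of the top 5%, 175 (27.6%) were in liver's top 5% and 152 below its median row. By definition, liver's top 1%, its top 5% and the part below its median row hold 0.993%, 5.0% and 50% of all ranked rows. The counts place the cerebellum ranking beside a second tissue and were not tested.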

How the data were processed

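The members of the ranking, the gene lists and the alternatives were chosen with earlier results of these data known. The authors deposited linear intensities, 1 per feature and array, with the same sorted values on all 6 arrays (0 positions differ), so they had been quantile normalized. How background was corrected and probes were summarised is not given in the sources used here. GCOS is named in the submitters' processing notes, with no version. There were 93 values below 0 per array. Precision is limited by the 3 arrays.

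Rows with 1 platform symbol were ranked with no filter, in Python 3.11.15 with pandas 2.3.3 and numpy 2.4.6. Another 1780 rows had several symbols and 678 none, and these were not named. The 12685 rows hold 12584 symbols, of which 12121 are in the chimpanzee RefSeq table of gene names. The script was tested on simulated ranks. No group comparison and no test were made. Lists are described by counts beside all rows, with 1 row per symbol, that of the highest mean, and a few list patterns that took in wrong families were corrected by name after the table was opened.

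Named genes were the 20 highest, the 2 highest, the lowest and the widest of each cell type list, the 2 highest of each function list with a member in the top 5%, the 5 steadiest and 5 least steady of the top 1%, the 10 widest of the top 5%, and the rows at the limits. Families with more than 1 member in the top 1% could be named whole. Other list members named were chosen after their values were seen. Alternatives were other summaries and row sets, a filter, renewed normalization and leaving out each array.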

Additional observations from a re-analysis of the deposited data

How the results depend on the processing

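No paired analysis was possible because a single tissue was described and no groups were compared. Membership was steady: 96 to 125 of the 126 rows of the top 1% were kept over the alternatives, the fewest after leaving out rows below the 25th percentile, which shrinks the ranked set, and 117 to 118 with an array left out. For the top 5%, 480 to 632 of 634 were kept. Of 462 counts of list members in the top 5%, 444 stayed within 1.5 times. List medians were less steady. Of 180 medians taken on a single array, 111 lay within the SD of the 3 single-array medians from the reported one, and 69 did not. The number of rows within 1 percentile point, 608, fell to 302 with that filter, and was 1751 to 2707 with an array left out (2707 without replicate 2), since spans over fewer arrays are narrower by construction. Means over 3 animals, unknown probe summaries and human probes limit every rank, and signals near background have little order.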

Other observations

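A few rows of the top 5% carry genes known mainly from other tissues or states, and were picked after their values were seen. NKX2-5, a factor of the heart, had 999.8, 648 and 992 and ranked 383. APOBEC3A, a cytidine deaminase of myeloid cells, had 872, 453 and 1031, and the growth factor FGF5 had 966, 464 and 646. With SLC11A1 in the top 1%, these stand beside a microglia and macrophage list of which 16 of 18 members lay below the median row. In liver's own ranking NKX2-5 lay at percentile 94.83 and SLC11A1 at 94.2, so their high ranks were not particular to the cerebellum. Whether such signals come from the named transcript was not tested.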
